A study of Caenorhabditis elegans with 6 samples.

Results

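The transcriptome of the normal distal gonad of Caenorhabditis elegans is described from the 3 wild-type libraries of a series of 6. The libraries were chosen by their genotype label alone, and no measured value entered the choice. The series compares the wild-type gonad with that of sin-3(tm1276) animals, whose 3 libraries are not used here. Each wild-type library was made from the gonads of 5 to 7 young adults taken 12 h after the L4 larval stage; each dissected arm was severed at its bend and only the distal piece was taken. Total RNA was depleted of ribosomal RNA with a stranded kit and read as single reads of 50 bases. The labels name no strain, temperature or culture for the 3 samples, so the SD given with each value is the spread between these samples and may be technical in part.

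The distal arm holds, from the tip inwards, mitotic stem and progenitor germ cells kept undifferentiated by Notch signalling, germ cells entering meiosis, and a long zone of pachytene cells in which chromosomes are paired and recombined. These cells share a common cytoplasm and are wrapped by thin somatic sheath cells, with the somatic distal tip cell capping the end. Many RNAs of the oocyte and early embryo are made by the meiotic cells of this arm and kept from translation until later, and in these germ cells most of the X chromosome is known to be held at low transcription.

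The libraries held 25002505, 24505604 and 24951839 reads assigned to genes in replicates 1, 2 and 3. Levels are given as CPM, the count of a gene per 1000000 gene-assigned reads of its library. Levels of single genes are compared with each other as CPM per kilobase, the CPM divided by the length of the gene's annotated exons, and ranks are places in this order among 19971 nuclear protein-coding genes. A count of 0 in a library allows a level of up to 3 counts, which is 0.120 to 0.122 CPM, and this limit covers counting error only. All values below are descriptions of libraries of a single genotype, with no test.

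Listed germline genes were high, and listed markers of somatic tissue and sperm were low beside them. The lists were chosen with earlier results of these data known, so the choice of members may set part of this contrast. Of 254 listed genes of germ cell biology in the files, 250 reached 1 CPM in each library and 149 reached 100 CPM, with a median level of 62.1 CPM per kilobase. Of 118 listed markers of somatic tissues, 66 reached 1 CPM and 2 reached 100 CPM in each library, with a median of 0.824 CPM per kilobase. In bulk samples such as these, fewer cells of a type and less RNA per cell cannot be told apart. Of 69 listed genes of sperm formation and sperm proteins, 8 reached 1 CPM. Over all nuclear protein-coding genes the same threshold was passed by 7261, which is 36.4%, and the median of these was 34.9 CPM per kilobase. With undetected genes kept in, as in the list medians, the median of all 19971 was 0.153 CPM per kilobase. The somatic markers thus lay above the median of all genes, and a larger share of them passed 1 CPM.

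**Figure D1:**
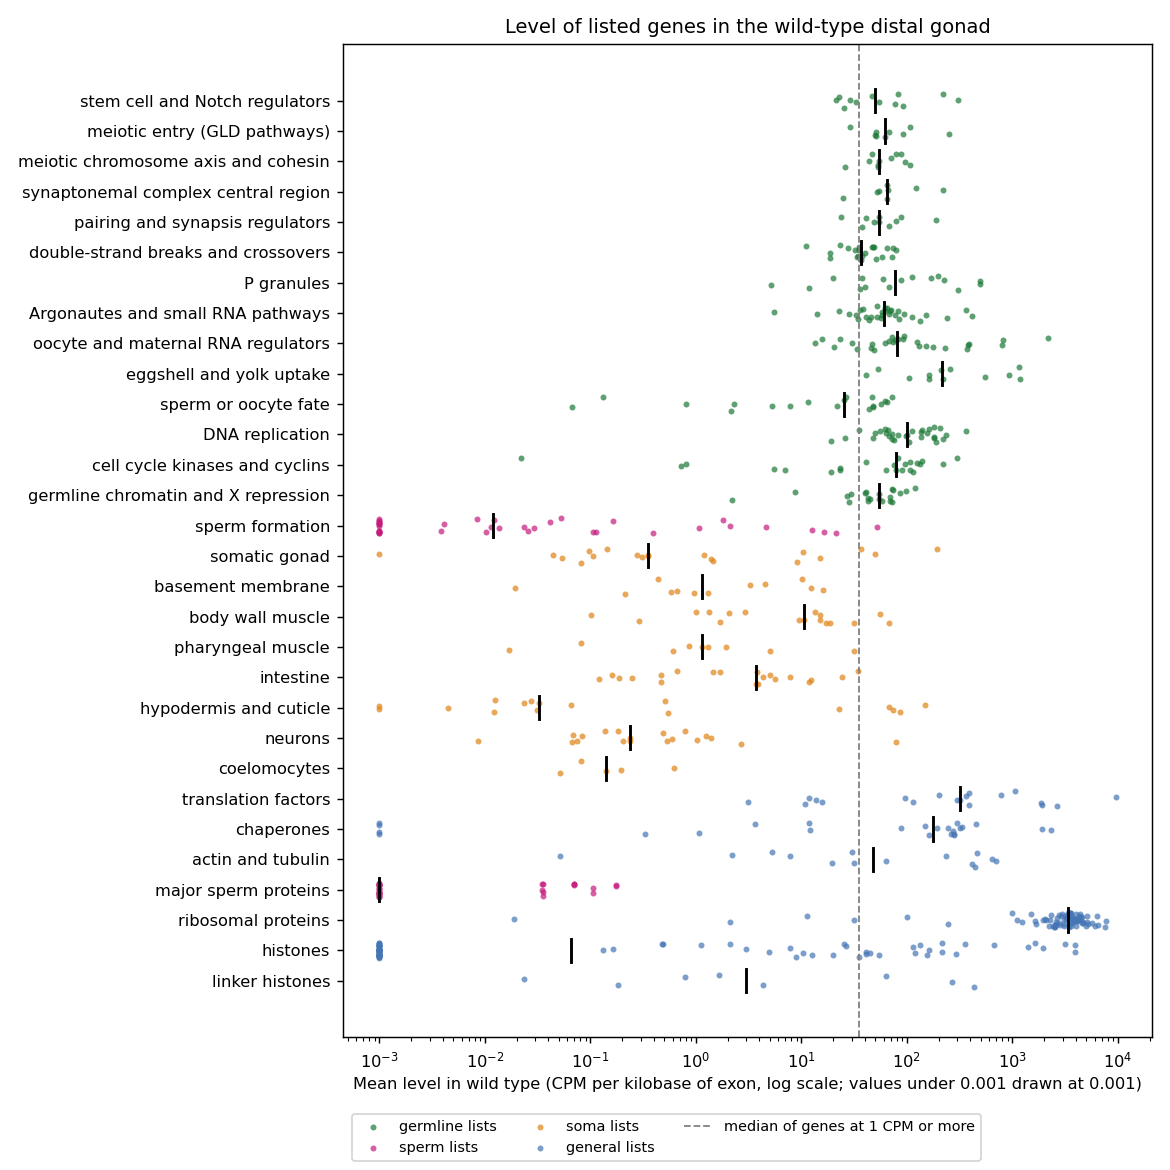
Mean level of each listed gene over the 3 wild-type libraries, in CPM per kilobase of exon on a log axis, with 1 point per gene and a black bar at the median of each list, and genes at or near 0 drawn at the left edge; the dashed line marks the median of protein-coding genes at 1 CPM or more. The medians of 13 of 14 germline lists lie to the right of the dashed line, that of sperm or oocyte fate to its left, and the medians of the sperm and soma lists all lie to its left.

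Detected genes spanned a wide range of levels. A read was found in at least 1 library for 14814 nuclear protein-coding genes, while 5157, or 25.8%, had none in any library. Levels of 100 CPM or more in every library were reached by 1946 protein-coding genes and levels of 1000 CPM or more by 107. The 100 genes with the highest counts took 27.3% ± 0.18 of nuclear protein-coding reads and the highest 1000 took 63.2% ± 0.21 (SD, n = 3). Between 490 and 505 genes held 50% of these reads in each library, and between 5475 and 5498 genes held 99%. The many weakly detected genes beyond these added about 1% of the reads.

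The translation machinery led the ranking. The elongation factor gene eef-1A.1 (WBGene00001168, chromosome III, 6970026 to 6971712 in WBcel235), which delivers aminoacyl-tRNA to the ribosome, had 14838, 14969 and 14075 CPM and ranked first both by CPM and by CPM per kilobase (9517 ± 314, SD, n = 3). It overlaps a gene on the other strand. The translocation factor gene eef-2 had 7136, 7345 and 7567 CPM. Of 81 genes listed by the ribosomal protein names rps, rpl and rla, 79 reached 1 CPM and 75 reached 100 CPM. The list had a median of 3363 CPM per kilobase. Its summed level was 151672, 150774 and 148537 CPM in replicates 1 to 3. The small subunit gene rps-25 and the large subunit gene rpl-41.2 followed eef-1A.1 per kilobase, at 7697 ± 218 and 7518 ± 572 (SD, n = 3). The members of this list under 1 CPM were rpl-37 and rpl-42, both named after their values were seen. Genes under other names that may encode the same proteins were not looked for.

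Of the 100 protein-coding genes with the highest CPM per kilobase, 73 carry a ribosomal protein name (rps, rpl or rla) and 6 encode core histones. Ribosomal protein genes under other names are not in this count. Of the 100 genes, 2 stand in the germline lists and 0 are X-linked. The same genes filled 99 of these 100 places in all 3 libraries. The germline genes among them were cey-2 and cpg-2. Other genes with high levels were the cytosolic chaperone gene hsp-90, at 5265, 5608 and 5680.2 CPM, the Hsp70 gene hsp-1, at 3769.9, 4134 and 3922 CPM, and the ribosome-associated scaffold gene rack-1, at 3135, 3261 and 3262 CPM. These genes varied by a few percent between the libraries.

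Within the RNA classes of the annotation, nuclear protein-coding genes took 84.2% ± 0.096 of gene-assigned reads (SD, n = 3). Ribosomal RNA that the depletion had left took 13.42%, 13.95% and 13.63%, of which 7.34% ± 0.89 came from the nuclear and 6.33% ± 0.66 from the mitochondrial genome (SD, n = 3). Small RNA classes were hardly seen: of 15363 annotated piRNA loci, 0 reached 1 CPM, and of 261 microRNA loci 1 did. The piRNA loci with the highest counts span 21 bases, which is shorter than a read of these libraries. Whether the preparation kept RNAs this short was not tested, so these counts give no level of small RNAs in the gonad. Small nucleolar RNAs took 0.221% ± 0.0027 (SD, n = 3), most of it from ZK185.9, at 1736, 1885 and 1883 CPM. Pseudogenes took 0.376% ± 0.024 (SD, n = 3), and 211 of 2128 reached 1 CPM.

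The class of other noncoding RNAs was uneven, at 0.202% in replicate 1 and 0.131% and 0.134% in replicates 2 and 3. The RNA component of RNase P, rpr-1, which trims transfer RNA ends, had 533, 219 and 264 CPM, and srpr-2.1 and srpr-2.2, for which no role is given here, had 341, 234 and 238 CPM and 541, 305 and 331 CPM. All 3 were highest in replicate 1.

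The mitochondrial genome supplied 8.004%, 6.781% and 8.267% of gene-assigned reads in replicates 1 to 3, lowest in replicate 2. Its 12 protein-coding genes took 1.356% ± 0.14 (SD, n = 3). The cytochrome oxidase subunit gene COX1 was the highest of them per kilobase, at 3052 ± 264, followed by COX3 at 2286, COX2 at 2026 ± 297 and the cytochrome b gene CYTB at 1854 ± 162 (SD, n = 3). COX3 lay above COX2, and COX2 above CYTB, in each library. In replicate 2 COX2 and CYTB were close, at 1683 and 1669 CPM per kilobase. All 3 genes were lowest in replicate 2, so their SDs hold a shift that they share. The NADH dehydrogenase genes ND2 and ND4L were lowest, at 65.9 ± 16.6 and 28.0 ± 7.48 CPM per kilobase (SD, n = 3).

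Genes of the stem cell zone were all present. The 12 listed regulators of germline stem cells and Notch signalling ranged from 21.05 to 304 CPM per kilobase with a median of 50.3. The Notch receptor gene glp-1 (WBGene00001609, chromosome III, 9092241 to 9099698), which keeps germ cells mitotic, had 396, 398 and 409.9 CPM and ranked 1045. Its transcriptional partner lag-1 had 109, 103 and 108 CPM. The direct Notch targets lst-1 and sygl-1, which are known to be transcribed only near the tip, had 78.0, 74.5 and 74.3 CPM and 21.2, 18.7 and 13.1 CPM. The level of sygl-1 was the lowest of the list per kilobase, at 21.05 ± 4.95 (SD, n = 3), which does not differ beyond its spread from lag-1 at 22.8 ± 0.71.

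The PUF proteins bind the 3' ends of messenger RNAs and repress them. The stem cell factors fbf-1 and fbf-2 had 29.2 ± 1.16 and 32.8 ± 1.85 CPM per kilobase, while their relatives puf-3 and puf-11 had 222 ± 1.69 and 304 ± 7.26 (SD, n = 3). These pairs stand apart by far more than their spread. The PUF genes listed with oocyte regulators fell on both sides, with puf-5 at 383 ± 6.82 and puf-6 and puf-7 at 33.3 ± 1.51 and 23.2 ± 1.56 (SD, n = 3).

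The GLD genes, which drive entry into meiosis by controlling translation and poly(A) tails, were also expressed throughout. The 9 listed genes ranged from 29.1 to 253 CPM per kilobase, and 8 reached 100 CPM. The translational repressor gene gld-1 (WBGene00001595, chromosome I, 7695681 to 7698222) led them per kilobase, with 564, 580.5 and 538 CPM. The poly(A) polymerase gene gld-2 had 181, 189.5 and 178 CPM and its partner gld-3 had 354, 340.3 and 354 CPM. Per kilobase, gld-2 was lowest of the list, with a rank of 4059.

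All genes listed for meiotic chromosomes reached 10 CPM in every library. The axis and cohesin list, with 11 of 12 names matched, had a median of 54.2 CPM per kilobase. The HORMA domain axis genes him-3, htp-1 and htp-3 were at 108 ± 2.52, 96.3 ± 3.85 and 78.0 ± 2.76, and the meiotic cohesin gene rec-8 was at 71.1 ± 0.44 (SD, n = 3). The other meiotic kleisins coh-3 and coh-4 were lower, at 43.4 ± 1.21 and 25.8 ± 1.63, and the mitotic kleisin scc-1 was at 87.3 ± 1.14 (SD, n = 3).

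The structural genes of the synaptonemal complex, the zipper between paired chromosomes, were close to each other. The genes syp-2, syp-3, syp-4, syp-5 and syp-6 lay between 51.5 and 66.7 CPM per kilobase, and syp-1 was at 24.9 ± 0.77 (SD, n = 3). The Skp1-related genes skr-1 and skr-2, whose products are also part of ubiquitin ligases, were at 121 ± 3.08 and 219 ± 4.27 (SD, n = 3). Among the pairing regulators the Polo kinase gene plk-1 led with 188 ± 1.31, and the meiotic checkpoint kinase gene chk-2 was lowest at 23.9 ± 2.44 (SD, n = 3). The nuclear envelope gene sun-1, which links chromosome ends to the cytoskeleton, was at 88.6 ± 3.24 and him-8, which pairs the X chromosomes, at 54.7 ± 2.27 (SD, n = 3).

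Genes of double-strand breaks and crossovers had the lowest median of the meiotic lists, 36.3 CPM per kilobase over 23 genes. The break-forming enzyme gene spo-11 had 85.6, 82.3 and 82.6 CPM and its cofactors dsb-1, dsb-2 and dsb-3 were at 62.6 ± 1.03, 43.3 ± 1.02 and 44.1 ± 1.65 CPM (SD, n = 3). The strand exchange gene rad-51 had 78.0, 75.9 and 78.6 CPM. The crossover genes msh-5 and cosa-1 were at 39.6 ± 0.42 and 27.8 ± 0.81 CPM per kilobase (SD, n = 3). The RING finger crossover gene zhp-4 was the lowest of the list at 11.004 ± 0.83 (SD, n = 3). The annotation gives a gene on the other strand over 11 of these 23 genes, spo-11, dsb-2 and cosa-1 among them.

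P granule genes included some of the highest germline levels. P granules are the RNA and protein condensates on the germ cell nuclear envelope. The RNA helicase gene cgh-1 had 1111, 1175 and 1089.8 CPM and its partner car-1 had 720.1, 737 and 650.3 CPM, with 495 ± 19.5 and 494 ± 32.2 CPM per kilobase (SD, n = 3), which differ by less than their spread. The constitutive scaffold genes pgl-1 and pgl-3 were at 304 ± 8.21 and 225 ± 8.06 and the Vasa helicase gene glh-1 at 195.6 ± 22.5 CPM per kilobase (SD, n = 3). The X-linked genes meg-1, meg-2, meg-3 and meg-4, which encode embryonic P granule proteins, were among the lower members, from 5.19 to 37.8 CPM per kilobase.

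Of 32 genes of Argonautes and small RNA pathways, all reached 10 CPM and 18 reached 100 CPM. The secondary Argonaute genes wago-1 and hrde-1, whose products carry small RNAs made by RNA-dependent polymerases, were highest. The gene wago-1 had 1257, 1257 and 1284 CPM and hrde-1 had 1274, 1281 and 1274 CPM, or 414 ± 5.16 and 361 ± 1.05 CPM per kilobase (SD, n = 3). The piRNA Argonaute gene prg-1 was at 242 ± 8.59 and the licensing Argonaute gene csr-1 at 151 ± 4.71 (SD, n = 3). The X-linked Argonaute gene nrde-3, known for nuclear silencing in somatic cells, was the lowest of the list at 5.46 ± 0.42 (SD, n = 3).

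Genes whose products act later, in oocytes and embryos, had higher medians than the meiotic lists. The 28 oocyte and maternal regulators had a median of 79.7 CPM per kilobase. The Y-box gene cey-2, whose product binds messenger RNA, led them with 2163, 2186 and 2273 CPM and 2183 ± 57.6 CPM per kilobase (SD, n = 3; rank 81). The embryonic fate regulators spn-4 and pos-1 were at 391 ± 5.196 and 369 ± 11.05, and the oocyte maturation genes oma-1 and oma-2 at 92.0 ± 2.78 and 124.2 ± 6.53 (SD, n = 3). The lowest was the Notch ligand gene apx-1, used in the embryo, at 13.3 ± 1.18 (SD, n = 3).

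Eggshell and yolk uptake genes had the highest median of all germline lists, 215 CPM per kilobase. All 12 passed 90 CPM on average, and 11 reached 100 CPM in every library. The chitin-binding protein gene cbd-1 (WBGene00010351, chromosome IV, 11372991 to 11377627) had 3858, 3909.9 and 3897 CPM. The eggshell proteoglycan genes cpg-1 and cpg-2 had 1163 ± 20.7 and 1191 ± 33.3 CPM per kilobase (SD, n = 3). The yolk receptor gene rme-2 had 1633, 1559 and 1562 CPM and the chitin synthase gene chs-1 had 890.2, 894 and 909 CPM. The eggshell genes perm-2 and perm-4 were less even, with 189, 157 and 143 CPM and 214, 171 and 146 CPM, highest in replicate 1.

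DNA replication and mitotic genes were also well represented. All 31 matched replication genes reached 10 CPM, with a median of 99.5 CPM per kilobase. The ribonucleotide reductase gene rnr-2 led at 360.0 ± 15.3, followed by the single-strand binding gene rpa-2 at 233 ± 7.41 and the sliding clamp gene pcn-1 at 221 ± 3.27 (SD, n = 3). The licensing factor gene cdt-1 was lowest at 19.2 ± 0.51 (SD, n = 3). Of 23 cell cycle genes, 21 reached 1 CPM. The cyclin B gene cyb-3 and its kinase cdk-1 were at 298 ± 2.15 and 222 ± 8.77 CPM per kilobase (SD, n = 3).

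The lowest members of the cell cycle list were near or below 1 CPM or had a few CPM. The cyclin D gene cyd-1 had 30, 42 and 35 reads and its X-linked kinase cdk-4 had 7.56, 4.98 and 7.53 CPM. The kinase inhibitor gene cki-1 had 0.760, 0.490 and 0.721 CPM. The kinase gene wee-1.1 had 1, 2 and 0 reads, within what a count of 0 allows. The relatives of these genes were higher, with the inhibitor gene cki-2 at 23.1 ± 0.31 and the kinase gene cdk-2 at 18.98 ± 0.48 CPM per kilobase (SD, n = 3). Among the phosphatase genes, cdc-25.1 was at 113 ± 0.70, cdc-25.2 at 7.00 ± 0.60 and cdc-25.3 at 23.2 ± 1.95 CPM per kilobase (SD, n = 3).

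The list of sperm or oocyte fate had the lowest median of the germline lists, 25.12 CPM per kilobase over 19 genes. It also holds genes of dosage compensation and sex determination, which weigh on this median. Of these, sdc-3 stood at the median, and sdc-1, sdc-2, sex-1 and xol-1 lay between 0.813 and 5.28 CPM per kilobase. The masculinizing gene fem-3 had 78.7, 74.1 and 84.8 CPM and the feminizing receptor gene tra-2 had 135, 130.3 and 132 CPM. The sperm fate gene fog-1 had 25.0, 24.6 and 23.5 CPM, but its partner fog-3 had 0, 0 and 5 reads. The male-determining secreted factor gene her-1 had 6, 2 and 3 reads. The other 17 genes all reached 1 CPM in every library.

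Chromatin regulators of the germline, 21 genes with a median of 54.1 CPM per kilobase, were even between libraries. The gene sin-3 itself (WBGene00004117, chromosome I, 8416816 to 8425051), which encodes a histone deacetylase scaffold and overlaps a gene on the other strand, had 345, 338 and 349.6 CPM and ranked 1516. The deacetylase gene hda-1 was at 73.4 ± 3.07 CPM per kilobase and the chromodomain gene mrg-1 at 119.4 ± 0.77 (SD, n = 3). The histone methyltransferase genes mes-4 and mes-2, required in the germline to keep the X low, were at 54.1 ± 0.87 and 40.1 ± 0.62 (SD, n = 3). The lowest were the X-linked genes lin-15B at 8.73 ± 0.15 and the heterochromatin protein gene hpl-1 at 2.19 ± 0.18 (SD, n = 3).

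Histone genes gave uneven values, and these are uncertain. Reads with several alignments took 6.71% to 7.93% of all counted reads and are held apart from the genes, so near-identical histone copies may have lost them. Of 72 histone genes with the his prefix, 30 reached 1 CPM and 36 had no read. The highest were his-64 and his-62, at 3951 ± 80.6 and 3902 ± 121 CPM per kilobase, and the H3.3 gene his-72 was at 217 ± 13.0 (SD, n = 3). Among 8 linker histone genes, hil-5 and hil-4 led at 428 ± 3.08 and 268 ± 5.77, while the X-linked linker histone gene his-24, counted among the his genes, was at 4.93 ± 1.37 (SD, n = 3).

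Genes of sperm formation were mostly near 0. Of 31 major sperm protein genes, which drive sperm motility and occur as near-identical copies, 0 reached 1 CPM and 19 had no read, and the sum of their counts was 0.19998, 0.490 and 0.401 CPM. As with the histones, reads shared between such copies are held apart from the genes, so this sum is uncertain as a level. Of 38 matched sperm formation genes, 8 reached 1 CPM and 14 had no read. The sperm phosphatase gene gsp-3 had 0, 1 and 0 reads. Those that passed included spe-39, a vesicle trafficking gene with roles outside sperm, at 102, 100.1 and 101 CPM, the cytoplasmic polyadenylation gene cpb-1 at 48.9, 47.7 and 50.1 CPM, and spe-44, a transcription factor of spermatocytes, at 28.197, 25.341 and 25.93 CPM.

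Somatic gonad markers split sharply. The sum of the 20 markers was 1869.9, 1803 and 1624 CPM, of which the filamin gene fln-1, a contractile cell scaffold that overlaps other genes on both strands, gave 1632, 1568 and 1386 CPM. Of the 20 markers, 10 reached 1 CPM and 2, fln-1 among them, reached 100 CPM in every library. Without fln-1 the sum was 237.5, 235.2 and 238.1 CPM with a median of 1.22 CPM per gene. This remainder thus also came mostly from few genes, and members differed in direction. The troponin genes mup-2 and tnt-2 were lowest in replicate 1, with 16.198, 26.48 and 23.28 CPM and 10.8, 19.1 and 17.4 CPM, as was the matrix gene mig-6, with 8.60, 13.2 and 13.1 CPM. The sheath gap junction genes inx-8 and inx-9 were highest there, with 58.3, 42.8 and 47.6 CPM and 12.7, 10.7 and 12.3 CPM. The sheath regulators lim-7 and ceh-18 were low, with 2.84, 2.12 and 1.88 CPM and 0.920, 0.939 and 0.802 CPM. The distal tip cell ligand gene lag-2 had 1, 6 and 2 reads and the gonad regulator fkh-6 had 3, 5 and 3 reads, while ehn-3 had 0 in all libraries, which allows up to 0.122 CPM.

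Markers of tissues outside the gonad were present at low levels and were not even between libraries. The body wall muscle list summed to 364, 593 and 617 CPM, the pharyngeal muscle list to 51.8, 90.7 and 102 CPM, the intestine list to 258, 467 and 677 CPM and the hypodermis and cuticle list to 254, 422 and 485 CPM. Replicate 1 was lowest in each of these 4 lists. Among members at 1 CPM or more, it was lowest for 16 of 16 body wall muscle genes, 12 of 12 intestine genes, 5 of 5 cuticle genes and 4 of 5 pharyngeal muscle genes, against 30.2% of all protein-coding genes at that level. The actin gene act-4 stands in both muscle lists and gave 33.997, 56.8 and 60.4 CPM; without it the pharyngeal list summed to 17.8, 33.9 and 41.6 CPM. The pattern was not limited to tissue markers, since 15 of 19 chaperone genes at that level were also lowest in replicate 1. The muscle myosin gene unc-54 had 74.99, 138 and 137 CPM, the yolk protein gene vit-6 had 89.99, 184 and 252 CPM and the collagen gene col-140 had 93.03, 149 and 175 CPM.

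Among the listed markers, some specific to these tissues were at or near 0. The muscle regulator gene hlh-1 had 4, 3 and 2 reads, the gut regulator gene elt-2 had 2, 7 and 5 reads and the larval cuticle collagen gene dpy-7 had 0, 1 and 1 reads. Neuron markers did not share the pattern, with sums of 79.4, 80.3 and 84.6 CPM, of which the synaptobrevin gene snb-1 gave 63.3, 61.9 and 66.9 CPM, and the neuronal gene rab-3 had 3, 6 and 6 reads. Coelomocyte markers summed to 1.880, 1.836 and 1.603 CPM.

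**Figure D2:**
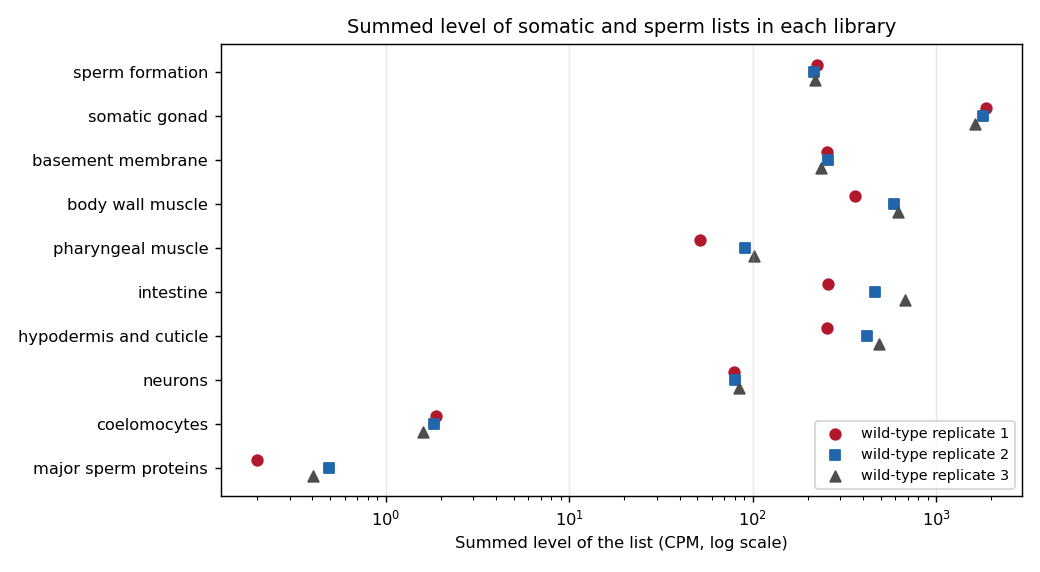
Summed level of each list of somatic or sperm genes in each wild-type library, in CPM on a log axis, with circles, squares and triangles for replicates 1, 2 and 3. Replicate 1 lies left of the other libraries for both muscle lists, intestine and hypodermis, while the sums of neurons, basement membrane and sperm formation nearly coincide.

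Basement membrane genes encode the matrix sheet around the gonad and other organs. The list summed to 253, 258 and 236 CPM, most of it from 2 genes. The type IV collagen genes let-2 and emb-9 had 98.71, 99.04 and 85.04 CPM and 69.43, 71.04 and 66.69 CPM. Members with lower levels were less even, and the laminin genes lam-2 and epi-1 and the perlecan gene unc-52 were lowest in replicate 1, with 4.76, 6.20 and 6.45 CPM, 5.32, 6.90 and 7.21 CPM and 4.999, 6.488 and 7.014 CPM. The hemicentin gene him-4 had 2.28, 5.51 and 2.97 CPM.

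The X chromosome stood apart from the autosomes in level far more than in the share of genes detected. Its 2730 protein-coding genes, 13.7% of all, took 1.29%, 1.24% and 1.22% of nuclear protein-coding reads. On the X, 772 genes or 28.3% reached 1 CPM, against 6489 or 37.6% on the autosomes. The median of these was 6.70 CPM on the X and 58.0 CPM on the autosomes. The median log2 CPM on the X minus that on the autosomes was -3.07, -3.08 and -3.15 in replicates 1 to 3, a mean of -3.10 ± 0.046 (SD, n = 3), which is 8.57-fold lower on the X. This gap belongs to the genes that passed 1 CPM: it was -2.63 over genes at 5 CPM or more and -0.30 with no filter, as log2(CPM + 0.1), where the medians over all genes were 0.147 CPM on the X and 0.201 CPM on the autosomes.

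The difference was wider per kilobase. The median exon length of genes at 1 CPM or more was 1881 bases on the X and 1539 on the autosomes. Per kilobase the difference was -3.48 ± 0.066 on the log2 scale (SD, n = 3), or 11.12-fold lower on the X. At 100 CPM or more in each library there were 7 genes on the X, 0.256% of its genes, and 1939 on the autosomes, 11.25% of theirs. Genes with no read in any library were fewer on the X, at 21.4% against 26.5%.

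**Figure D3:**
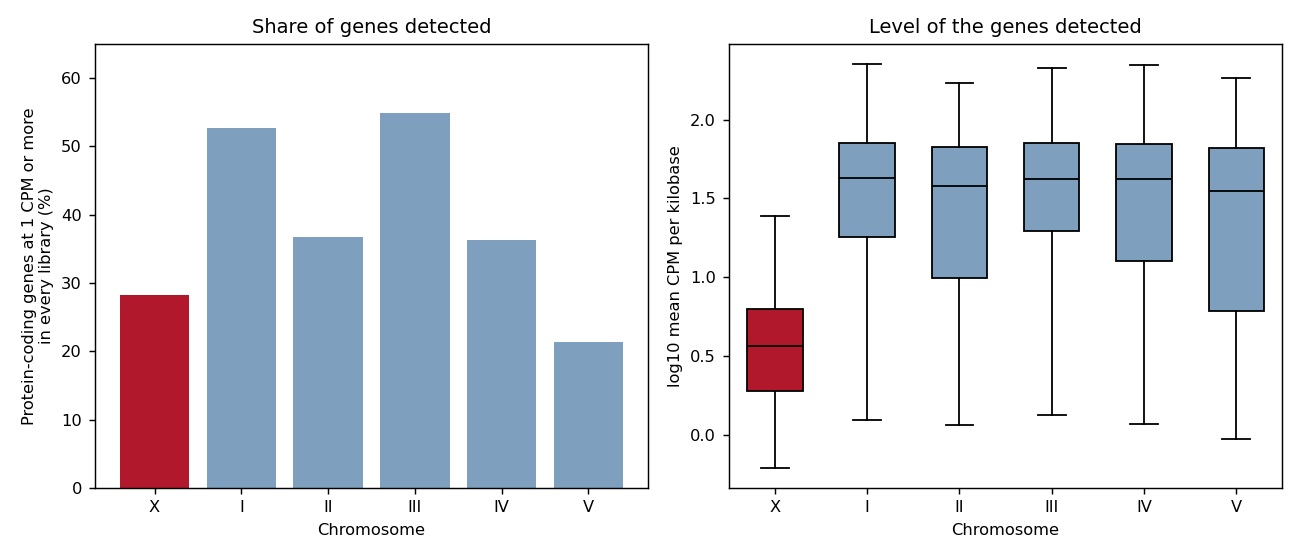
Left, percent of protein-coding genes at 1 CPM or more in every library by chromosome; right, log10 of the mean CPM per kilobase of these genes, with boxes from the lower to the upper quartile, a line at the median and whiskers from the 5th to the 95th percentile. The X, in red, is between V and IV in the share detected, and its median level is the lowest, at 3.66 CPM per kilobase against 35.0 to 42.7 on the autosomes.

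The autosomes differed from each other in the share of genes detected but little in median level. Chromosome III had 54.9% of its genes at 1 CPM or more and chromosome I 52.8%, against 36.7% on II, 36.2% on IV and 21.3% on V. On V, 40.5% of genes had no read in any library, the highest share. The genes detected had medians of 42.1, 42.7, 37.9, 41.8 and 35.0 CPM per kilobase on III, I, II, IV and V. Their lower quartiles differed more, at 26.1, 22.4, 11.8, 15.4 and 7.66 CPM in the same order. Chromosome V thus had the lowest share detected with a median level near that of the other autosomes, and the X a somewhat higher share with a median about an order lower.

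Level varied along the autosomes and hardly along the X. In the middle of each autosome, when its annotated span is cut into 3 equal parts, the detected genes had medians of 47.52 to 51.99 CPM per kilobase, above both outer parts of the same chromosome, whose medians were 23.3 to 38.4. On the X the 3 parts had medians of 3.73, 3.61 and 3.68, with 29.20%, 27.02% and 28.77% of genes detected. The middle parts held 55.1% of the reads of chromosome III and 46.3% of those of chromosome V.

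**Figure D4:**
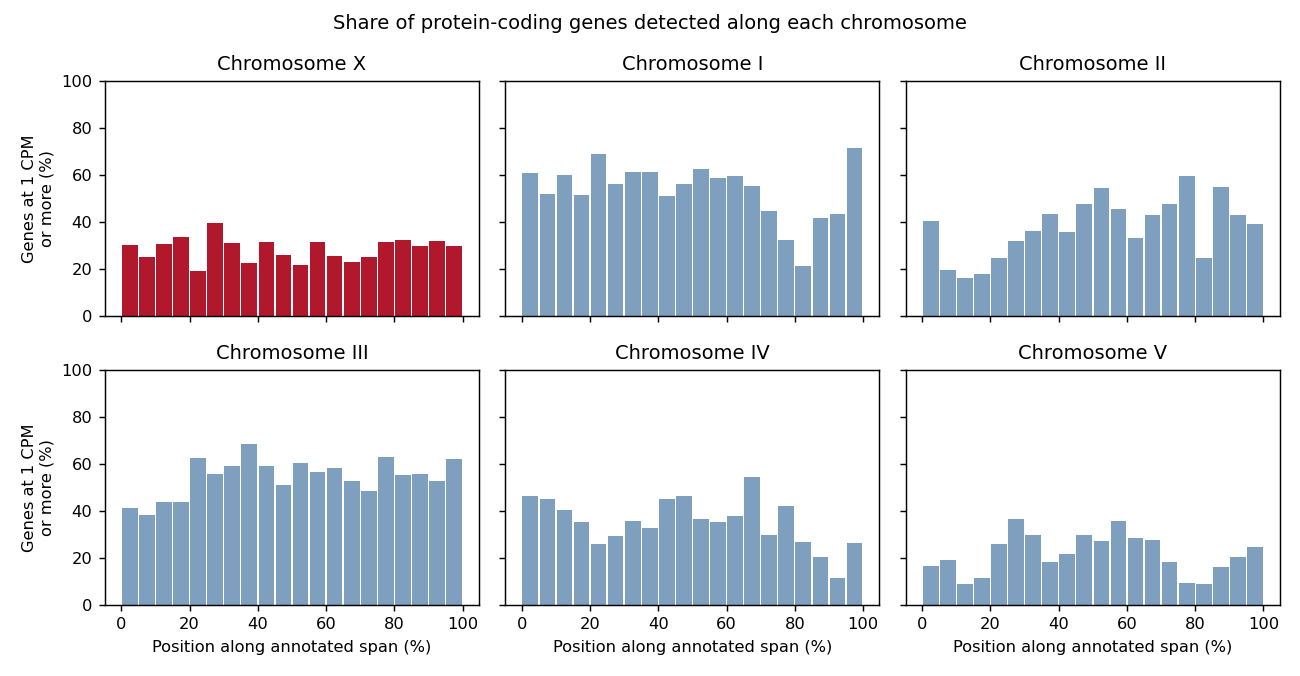
Percent of protein-coding genes at 1 CPM or more in every library in 20 equal windows along each chromosome, with position as percent of the annotated span. The windows of the X, in red, lie between 18.9% and 39.6%, while those of I lie between 21.1% and 71.3% and those of V between 8.79% and 36.7%, lowest on the arms.

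The few X-linked genes at high levels included C39D10.7 (WBGene00016534, X, 7907966 to 7913930), with 555, 435 and 413 CPM, and the ABC transporter gene mrp-4, with 474, 436 and 432 CPM. The endoplasmic reticulum genes hsp-3, an Hsp70 chaperone, and pdi-2, a disulfide isomerase, had 259, 239 and 207 CPM and 204, 178 and 155 CPM. W07E11.1 had 174, 161 and 162 CPM. The tyramine hydroxylase gene tbh-1, known to be made in sheath cells as well as neurons, had 181.5, 118.7 and 122.1 CPM and the spectrin gene spc-1 had 117, 108 and 105 CPM. These 7 are all of the X-linked genes at 100 CPM or more in each library, and all 7 were highest in replicate 1. The gene vit-2 had 70.2, 119.9 and 172 CPM and was lowest there.

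Germline-listed genes on the X were few and low. Only 12 of 254 germline-listed genes, or 4.72%, are X-linked, against 13.7% of all protein-coding genes and 29 of 118, or 24.6%, of the soma-listed genes. The 12 had a median of 5.36 CPM per kilobase and the 242 on autosomes a median of 64.2. Of the 12, none reached 100 CPM, and the highest was meg-1 at 37.8 ± 1.35 CPM per kilobase (SD, n = 3). The dosage compensation and sex determination genes sdc-1, sdc-2, sex-1 and xol-1 lay between 0.813 and 5.28. The gene nrde-3, known for silencing in somatic cells, was at 5.46. These members are not specific to germ cells and weigh on the median of the 12. The lists hold well-studied genes and are not a census of germline genes.

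Some paralogues differed widely in level. In 12 pairs of paralogues, picked after their values were seen, the copy with the lower level is X-linked in 9. The elongation factor copy eef-1A.2 on the X was at 11.8 ± 0.33 CPM per kilobase, 803-fold below eef-1A.1. The poly(A)-binding protein gene pab-1 was at 782 ± 25.16 and X-linked pab-2 at 3.13 ± 0.19, and the nonmuscle myosin gene nmy-2 was at 235.4 ± 1.59 and X-linked nmy-1 at 5.24 ± 0.34 (SD, n = 3). The cap-binding protein gene ife-1 was at 361 ± 8.73 and X-linked ife-2 at 10.9 ± 0.60 (SD, n = 3). An autosomal pair differed by 139.96-fold: the germline initiation factor gene iff-1 was at 1923 ± 81.5 and its chromosome II copy iff-2 at 13.8 ± 1.83 (SD, n = 3). The pairs were chosen for their spread, so the count says nothing about paralogues in general. As with the histones, reads shared between copies alike in sequence are held apart from the genes, so the fold values are uncertain.

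Large gene families ranged from none to all of their members expressed. Of 94 families with 20 or more members by gene name prefix, 23 had no member at 1 CPM in every library and 28 had at least 50% of members there. Every member passed in the families of translation initiation factors (eif), Mediator subunits (mdt), mitochondrial ribosomal proteins (mrpl and mrps), nucleoporins (npp), small subunit ribosomal proteins (rps), proton pump subunits (vha) and vacuolar sorting proteins (vps). Of 1309 chemoreceptor genes, which sense odours in neurons, 2 passed and 1061 had no read. These were sri-40, at 31.6, 31.3 and 27.7 CPM, and srbc-65, at 2.08, 2.00 and 1.24 CPM. Of 269 nuclear hormone receptor genes 50 passed, of 156 collagen genes 29, and of 240 C-type lectin genes 6, where clec-87 had a mean of 913 CPM.

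The 3 libraries agreed closely. Over 5978 protein-coding genes with a mean of 5 CPM or more, the Spearman correlation across genes was 0.997 between replicates 1 and 2, 0.996 between 1 and 3 and 0.998 between 2 and 3; genes are not independent replicates. Levels were within 1.2-fold for 93.2%, 92.0% and 96.3% of genes in these pairs. More than 2-fold apart were 22 genes between replicates 1 and 2, 36 between 1 and 3 and 3 between 2 and 3. In the pairs with replicate 1, the other library was higher for 20 of the 22 and for all 36.

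The median coefficient of variation (CV, the SD as percent of the mean) was 3.84%, where counting error alone would give 2.48%. It fell with level, to 2.38% for genes above 1000 CPM. The common dispersion of edgeR over the same genes corresponds to a CV of 5.12% beyond counting. It is a single value fitted over all 5978 genes and not a median, so it is not the extra spread of a typical gene. For members with a mean of 5 CPM or more, the median CV in the 14 germline lists lay between 2.02% for breaks and crossovers and 4.31% for P granules. These are near the values of all genes at like levels, which were 3.79% at 20 to 100 CPM and 2.90% at 100 to 1000 CPM. By the same rule the median CV was 28.6% for body wall muscle, 44.3% for the intestine and 51.9% for pharyngeal muscle markers. The pharyngeal value rests on few members and is that of myo-2.

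Of the 5978 genes, 60 or 1.004% had a CV over 30%, and 55 of them were lowest in replicate 1 and 4 highest there. Of 464 X-linked genes 19 or 4.09% were among them, against 0.744% of 5514 autosomal genes. They include 21 of the 50 soma-listed genes and 0 of the 246 germline-listed genes at this level, 10 collagens and 6 vitellogenins, the yolk proteins made in the gut. The gene with the largest CV was ule-3, for which no role is given here, with 4.84, 1.39 and 14.7 CPM. The gut protease genes asp-1 and cpr-5 had 6.04, 15.3 and 22.3 CPM and 3.68, 8.65 and 13.0 CPM, and the heat shock gene hsp-16.2 had 3.36, 5.88 and 11.14 CPM. The pharyngeal myosin genes myo-1 and myo-2 had 5.00, 14.9 and 17.6 CPM and 4.64, 7.22 and 13.1 CPM. The part of carried-over tissue in these differences was not tested.

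**Figure D5:**
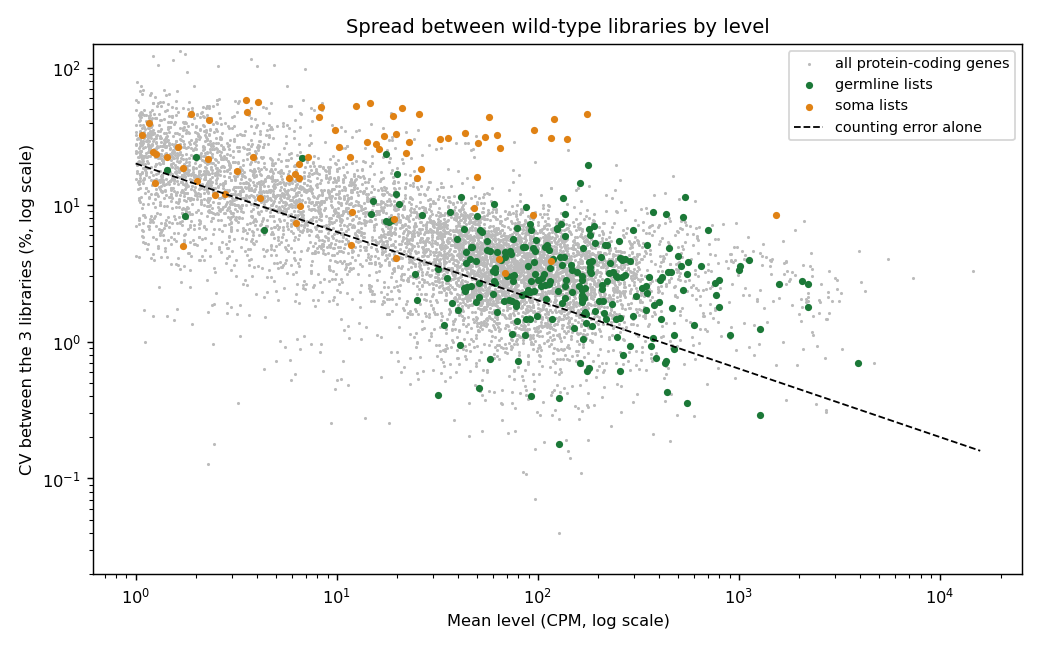
CV between the 3 wild-type libraries, in percent, against mean CPM, both on log axes, for protein-coding genes with a mean of 1 CPM or more. Germline-listed genes are green, soma-listed genes orange and the dashed line is the CV that counting error alone gives. Germline-listed genes above 5 CPM stay under 30%, while 21 soma-listed genes above 5 CPM lie above it.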

How the data were processed

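The authors deposited raw read counts per gene for each library; per the submitters' processing notes, STAR 2.7.3a, DESeq2 1.36.0, HTSeq 0.7.2 and fastp 0.20.1 were used. What each tool did is not given in the sources used here, nor are the reference build, the gene models and whether counting used strand. The 3 wild-type libraries were taken by genotype label. Rows of unassigned reads were removed; they held 9.43% to 10.9% of all counted reads, most of it reads with several alignments (6.71% to 7.93%), and ambiguous reads averaged 0.446%. Of 46934 gene IDs, 46923 were matched to the Ensembl annotation of WBcel235, which gave symbols, types, coordinates and exon lengths. CPM was computed over gene-assigned counts (24505604 to 25002505 per library), and a gene is called expressed at 1 CPM or more in every library.

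Levels are mean ± SD over the 3 libraries; no comparison with the mutant and no test was made, and correlations are descriptions. Intervals from counts of 0 cover counting error only. Where a gene overlaps another on the opposite strand, its reads may be shared with that gene. Python 3.11.15 with pandas 2.3.3 and NumPy 2.4.6, and R 4.3.3 with edgeR 4.0.16 and DESeq2 1.42.0 for scaling and dispersion, were used. Named genes are the listed genes, sin-3, the genes of the mitochondrial genome, the genes with the highest CPM, the highest CPM per kilobase, those highest on the X and per gene type, and the genes with the largest CV. The members and lists were chosen with earlier results of these data known. Alternatives were other scalings and filters, levels per kilobase, removal of overlapping genes and leaving out each library.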

Additional observations from a re-analysis of the deposited data

How the results depend on the processing

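The median log2 level of X-linked minus autosomal genes was negative in 10 of 10 alternatives. It was -3.17 when scaled to nuclear protein-coding counts, -3.48 per kilobase, -2.63 for genes at 5 CPM or more, and -0.30 with no filter and log2(CPM + 0.1). Leaving out each library gave -3.19 to -3.10. The X share of nuclear protein-coding counts was 1.19% without genes overlapping another on the other strand and 1.21% over genes at 1 CPM or more. The number of genes of any type called expressed, 7599, became 12656 with a single read in every library as the rule. The median level of the germline lists was 158 CPM scaled to nuclear protein-coding counts, 147 CPM without overlapping genes and 62.1 CPM per kilobase. The summed level of somatic gonad markers was 2097 CPM with the first of these, 205 CPM with the second and, in an alternative chosen after seeing the data, 237 CPM without fln-1. The protein-coding share of gene-assigned counts was 88.8% without overlapping genes. The median CV was 4.72% for genes at 1 CPM or more and 3.08% at 50 CPM or more, and 2.90% to 3.37% with each library left out, where it rests on a pair of samples. The other 34 of 54 values moved by less than the spread between libraries or, for counts of genes, by less than 1.5 times. No paired analysis was possible because a single group was described and no test was made. At this depth a gene with no read may lie anywhere below 0.122 CPM, and 3 libraries give only a rough SD.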

Other observations

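Neighbouring genes with a short gap between them were both expressed more often than those with a wider gap. Of 3457 neighbouring protein-coding pairs on the same strand with a gap of at most 500 bases, both members reached 1 CPM in every library in 42.5%, against 13.2% of 6789 pairs with a wider gap. Many nematode genes are transcribed as operons, in which such neighbours share a promoter, and the counts do not separate operon pairs from others. Divergent pairs, which start next to each other on opposite strands, had both members expressed in 49.5% of 897 close pairs and 19.1% of 3346 wider pairs. Convergent pairs had the lowest shares, 15.2% of 1221 close and 8.82% of 1588 wider pairs. Among pairs with both members expressed, the median absolute log2 difference of CPM per kilobase was 0.89 for close and 1.46 for wider same-strand pairs.

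When genes were split into 4 equal sets by exon length, 21.7% of the shortest set reached 1 CPM and 60.7% of the longest, while the median CPM per kilobase of the expressed genes was 57.3 for the shortest and 30.4 for the longest. The 1 CPM threshold is not scaled for length, so a short gene needs a higher CPM per kilobase to pass, and both differences are set in part by that filter. Genes with a single exon block were expressed in 71 of 686 cases, or 10.3%, and genes with several in 37.3%.

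Among noncoding RNAs of the long classes, 17 of 194 lincRNA genes reached 1 CPM, led by linc-7 at 10.2 CPM, linc-29 at 8.46 CPM and linc-6 at 7.45 CPM on average, and 4 of 100 antisense RNA genes did. Without the strand setting of the counting, the reads of an antisense gene and its partner cannot be told apart.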
